A study of Macaca fascicularis with 18 samples.

Results

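Liver-specific genes were taken here as genes with a liver median of at least 20 RPKM that was also at least 8 times the brain median and at least 8 times the kidney median. RPKM scales the reads of a gene to its length and to the size of the library, so that levels can be set side by side between genes. Of the 29324 Ensembl genes in the deposited table, 256 met this rule. They were 11.1% of the 2298 genes with a liver median of at least 20 RPKM. The study sequenced RNA from liver, cerebral cortex and kidney cortex of 2 female cynomolgus monkeys (Macaca fascicularis), called A1 and A2, both about 10 years old, with 3 tissue samples per organ and animal and therefore 18 libraries. The labels give no treatment or strain, and the animals were group-housed before they were put down under anaesthesia and their tissues placed in a preserving solution. Cerebral cortex is called brain and kidney cortex is called kidney in the following, and liver A2-3 stands for sample 3 of the liver of animal A2. The members were chosen from the tissue medians themselves, so that their levels in liver, kidney and brain are a description and carry no test between liver and the other tissues.

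The liver median of the rule was taken over 5 libraries, because liver A2-1 was left out. This library went against its label for the genes described here. They made up 0.244% of its summed RPKM and between 42.4% and 45.6% of the sum in the other 5 liver libraries. Results that rest on liver libraries are given without it first and with it where it enters. Read totals of the libraries cannot be read from RPKM values, so that counting intervals were not derived. As a sign of depth, the number of all genes listed at 0 was highest in brain A2-2 among the brain libraries (11748, with 10411 to 10709 in the rest). Among the kidney libraries it was highest in kidney A2-2 (12284, with 10734 to 11251 in the rest). Among the liver libraries it was highest in liver A1-2 (12628, with 11638 to 12275 in the rest). The RNA came from pieces of whole tissue, and fewer cells of a type and less RNA per cell cannot be told apart in such samples.

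As background, the liver is made up mostly of hepatocytes, which secrete most of the proteins of blood plasma, among them albumin, apolipoproteins, clotting factors and complement factors. Hepatocytes also carry out urea synthesis, bile acid synthesis and the first steps of drug breakdown by cytochrome P450 enzymes. The proximal tubule of the kidney cortex shares some of this chemistry with them, such as glucose synthesis and parts of amino acid breakdown, whereas cortical neurons and glia share little of it. The table gives Ensembl identifiers without gene symbols, and 0 of the 29324 identifiers could be matched to a symbol, since the gene table at hand holds no Ensembl identifiers. None of the 256 genes can therefore be assigned to one of these functions here, and the liver label was not checked against hepatocyte markers. The genes are described by their rank, from 1 for the highest liver median to 256 for the lowest, and 4 of them by their identifier.

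The liver medians of the 256 genes reached from 20.4 to 65932 RPKM, a 3232-fold range. The median over the genes was 157 RPKM, and 50% of them lay between 66.2 and 557 RPKM. There were 159 genes with at least 100 RPKM and 46 with at least 1000 RPKM. The sum was concentrated in few genes. The first gene held 28.4% of the summed liver medians of all 256, the first 10 held 54.3% and the first 50 held 83.2%. Among them were 7 of the 10 highest liver genes, 27 of the 50 highest and 57 of the 100 highest.

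**Figure D1:**
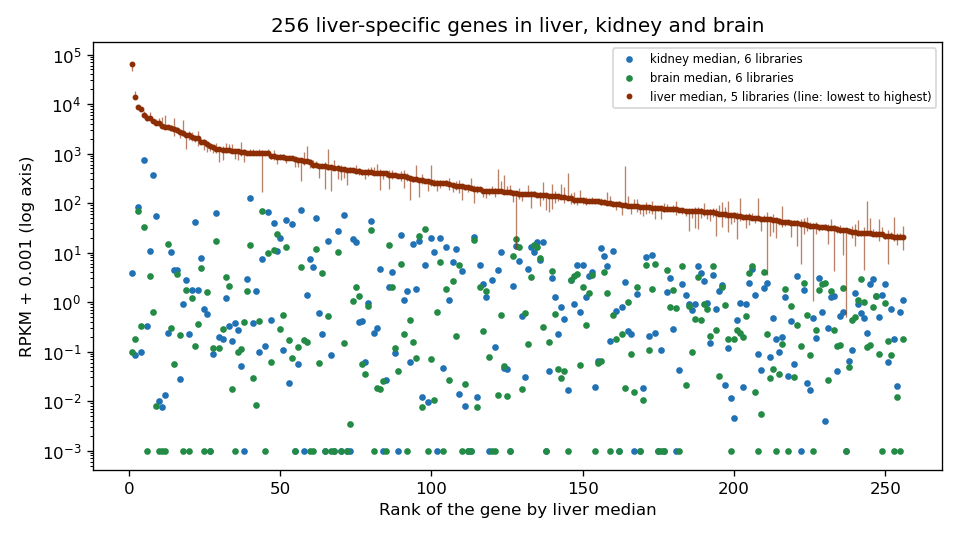
RPKM plus 0.001 on a log axis for the 256 liver-specific genes, ordered by their liver median; liver points are medians of 5 libraries with a line from the lowest to the highest library, kidney and brain points are medians of 6 libraries. Liver medians fall from 65932 to 20.4 RPKM, while kidney and brain points scatter below them over several powers of 10.

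The gene with the highest liver median, rank 1, had 71238, 65932 and 66853 RPKM in the 3 liver libraries of A1, and 47240 and 48099 RPKM in liver A2-2 and A2-3. The libraries of A2 lay below all those of A1. Its brain median was 0.098 RPKM. In kidney its median was 3.78 RPKM, with 6.96, 7.94 and 7.85 RPKM in A1 and 0.528, 0.610 and 0.587 RPKM in A2. At rank 2, the next gene had 14090, 16144 and 18769 RPKM in A1, and 13917 and 12372 RPKM in A2. Here, too, both A2 libraries lay below the lowest A1 library, but the lowest A1 value and the highest A2 value were close to each other. Its level was 0.084 RPKM in kidney and 0.182 RPKM in brain at the median. At rank 4, a gene had between 7621 and 8878 RPKM in the 5 liver libraries, with overlapping animals, against 0.0985 RPKM in kidney and 0.325 RPKM in brain.
Other genes of the first 10 were not restricted to liver to the same degree. For the gene of rank 5, liver held between 5218 and 7186 RPKM in the 5 libraries. In kidney its lowest value was 517 RPKM, its median 748 RPKM and its highest value 1233 RPKM, so that kidney stood at 12.3% of the liver median, close to the limit of 12.5% that the rule allows. Its 3 kidney values were higher in A1, from 827 to 1233 RPKM, than in A2, from 517 to 669 RPKM. In brain the order of the animals was the opposite, with 7.30 to 17.5 RPKM in A1 and 49.2 to 64.8 RPKM in A2. Rank 8 was held by a gene with between 4243 and 5053 RPKM in liver and a kidney median of 375 RPKM, and its 6 kidney libraries reached from 171 to 585 RPKM without overlap of the animals.

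Near the thresholds, the 3 lowest liver medians inside the rule were 20.4, 20.5 and 20.6 RPKM, and the 3 nearest genes below the minimum had 18.97, 18.8 and 17.7 RPKM. The smallest ratios to the higher of the 2 other tissues were 8.05, 8.10 and 8.14 among the members, against 7.78, 7.74 and 7.64 just outside. Most members lay far from this limit. For 133 genes the liver median was at least 100 times and for 73 genes at least 1000 times both other medians, including 15 genes with a median of 0 in brain and in kidney, and 42 genes were below 16 times.

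Whether the choice held from one animal to the other was examined by applying the rule to one animal and reading the other. With the libraries of A1 alone, 257 genes were chosen, and in the libraries of A2, which had no part in that choice, 224 of them (87.2%) met the complete rule again. Liver was the highest tissue in A2 for 256 of the 257 genes, and the 8-fold distance was kept for 235 of them (91.4%). In the other direction, 253 genes were chosen in A2, of which 224 (88.5%) met the rule in A1, 234 (92.5%) kept the 8-fold distance, and 249 had their highest tissue median in liver. Of the 256 members, 224 met the rule in both animals taken alone, 24 in A1 only, 6 in A2 only and 2 in neither of them. With 3 libraries of A1 and 2 of A2 in the liver median, the rule leans towards the level of A1.

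As a sum, the 256 genes made up 44.2% ± 1.24 of the summed RPKM of a liver library (mean ± SD, n = 5), 0.470% ± 0.0302 in kidney and 0.159% ± 0.0119 in brain (n = 6 libraries each). In the liver of A1 the share was 44.4%, 44.9% and 45.6%, and in that of A2 it was 43.7% and 42.4%. All A1 values lay above the A2 values, with a difference of 1.95 percentage points between the means. The choice of the members used these libraries and leans towards A1, so that no test is given for this difference. Without the genes that were among the 10 highest of any library, the share in liver was 30.5%.

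**Figure D2:**
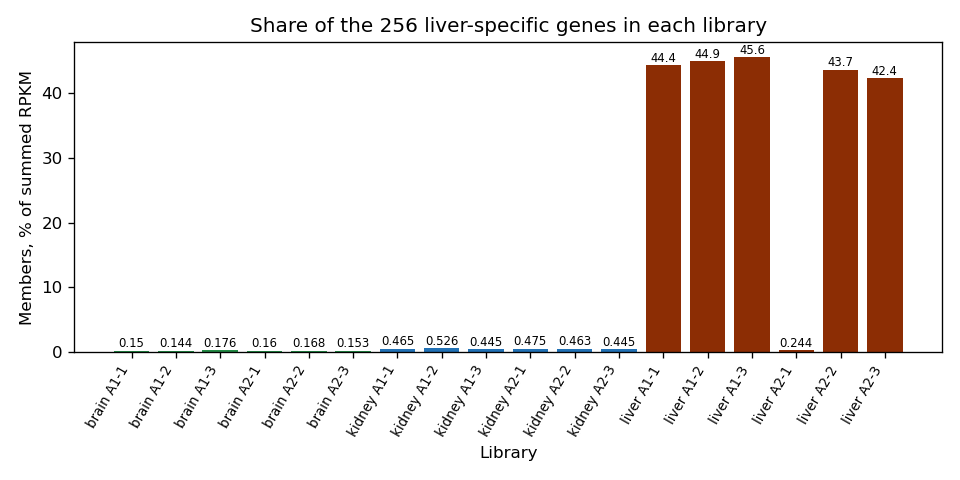
Share of the 256 liver-specific genes in the summed RPKM of each of the 18 libraries, in percent (y axis, bars from 0). Brain libraries stand at 0.144% to 0.176%, kidney libraries at 0.445% to 0.526%, 5 liver libraries at 42.4% to 45.6% and liver A2-1 at 0.244%.

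Outside liver, the members ranged from values listed at 0 to a median of 748 RPKM, that of the gene of rank 5 in kidney. In kidney, 141 of the 256 genes had a median below 1 RPKM and 40 a median of at least 10 RPKM, while 25 had a median of 0 and 7 were listed at 0 in all 6 libraries. In brain, 178 genes had a median below 1 RPKM and 20 at least 10 RPKM, while 48 had a median of 0 and 23 were listed at 0 in all 6 libraries. The number of members at 0 was highest in the libraries with the most genes at 0 overall. It was 72 for brain A2-2, where the rest of that tissue had 39 to 61, and 54 for kidney A2-2, where the rest had 20 to 37. Relative to liver, the kidney level was 0.519% at the median over the genes, and 25% of the genes stood at 3.45% or more. The brain level was 0.118% at the median, with 25% of the genes at 1.23% or more. In all 6 kidney libraries 253 of the 256 genes lay below the lowest of the 5 liver libraries, and in all 6 brain libraries 255 did, which the rule largely fixes.

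Taking 1 RPKM as the limit of expression, the genes fell into 4 classes. There were 127 genes below 1 RPKM at the median in kidney and in brain, with a median liver level of 133 RPKM and 35.0% of the summed liver medians. A further 51 genes reached 1 RPKM in kidney only. With the gene of rank 1 among them, they held 41.3% of the sum, at a median liver level of 179 RPKM. That gene alone held 28.4% of the sum, and in kidney it lay above 1 RPKM in A1 and below it in A2. For 64 genes both tissues reached 1 RPKM (median liver level 184 RPKM, 20.4% of the sum), and for 14 genes brain alone did (98.9 RPKM, 3.34%). Among the 20 genes of highest liver level, 9 were below 1 RPKM in both tissues, 5 reached it in kidney only, 5 in both and 1 in brain only.

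**Figure D3:**
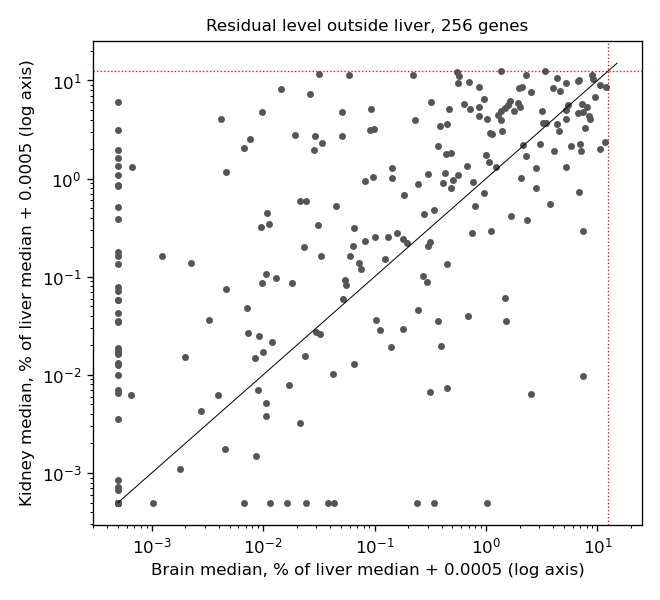
Median in kidney (y axis) against median in brain (x axis), each in percent of the liver median plus 0.0005 on log axes, for the 256 genes; the solid line marks equal values and the dotted lines the 12.5% limit set by the rule. More genes lie above the line (164 with the higher median in kidney) than below it (77), and the column at the left edge holds the 48 genes with a brain median of 0.

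Kidney was compared with brain within the members, since the rule sets an upper limit on both tissues but does not compare them. The kidney median was higher for 164 genes, the brain median for 77, and 15 had equal medians. With limma on log2(RPKM + 1), averaged over the samples of each animal in a tissue (n = 2 animals, Benjamini-Hochberg adjustment over 15275 genes, adjusted p below 0.05 and an absolute log2 difference of at least 1), 74 of the 256 genes were called, 28.9%, against 43.8% of all genes tested. Of these 74, 58 were higher in kidney (22.7% of the members, against 21.8% of all genes tested) and 16 higher in brain (6.25%, against 22.0%). Of the 2042 other genes with a liver median of at least 20 RPKM, 43.4% were called higher in kidney and 5.63% higher in brain. The members passed the filter of the test through their liver level, and 127 of them were below 1 RPKM in both tissues, where differences are small on this scale, so that nothing is read from their lower share of calls. With a pseudocount of 0.1 in place of 1, 125 members (48.8%) and 50.8% of all genes tested were called, with 36.7% of the members and 25.8% of all genes higher in kidney.
The largest difference was that of the gene of rank 8, whose brain libraries lay between 0.038 and 1.26 RPKM and whose kidney libraries lay between 171 and 585 RPKM. Kidney exceeded brain by 7.70 ± 0.39 on the log2 scale (SE, limma, adjusted p = 0.000144). For the gene of rank 9, with 0 to 0.032 RPKM in brain and 43.6 to 74.3 RPKM in kidney, the log2 difference was 5.77 ± 0.14 (limma, adjusted p = 3.84e-05). Among the genes higher in brain, the largest difference was found for the gene of rank 13. Its brain values lay between 12.9 and 16.7 RPKM and its kidney values between 0.069 and 0.701 RPKM, at a liver median of 3389 RPKM. The highest brain median of all members, 69.3 RPKM, belonged to the gene of rank 44, with a lowest value of 62.9 and a highest of 96.8 RPKM, and a kidney median of 7.50 RPKM. On the log2 scale, kidney was lower than brain by 3.67 for rank 13 (limma, log2 difference -3.67 ± 0.19 SE, adjusted p = 0.000161) and by 3.15 for rank 44 (-3.15 ± 0.19, limma, adjusted p = 0.000218). For all 4 genes the brain and kidney libraries did not overlap.

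The animals were compared within liver, with 3 libraries of A1 and 2 of A2. Each animal is represented by repeated samples of its liver, so that the p-values refer to these 2 animals and to the spread between samples, which was small. For samples of one animal, the SD of log2(RPKM + 1) was 0.11 at the median over the members and 0.25 at the 90th percentile, close to the median of 0.10 for the other genes with at least 20 RPKM in liver. With limma on log2(RPKM + 1) over the 10996 genes that reached 1 RPKM in 2 or more of the 5 libraries, 41 of the 256 genes were called (adjusted p below 0.05 and an absolute log2 difference of at least 1). This was 16.02% of the members, against 4.34% of all genes tested and 3.57% of the 2042 other genes with at least 20 RPKM in liver. The members were chosen on the same 5 libraries, and 17 of the 41 did not meet the rule in both animals taken alone, so that this share is partly set by the choice. Among the 224 members that met it in both, 24 were called (10.7%). With a pseudocount of 0.1, 42 members and 7.39% of all genes tested were called. At an adjusted p below 0.05 alone, 152 members (59.4%) passed, against 28.4% of all genes tested and 39.8% of the other abundant genes, and among the 224 members 126 did (56.25%). The count of 152 was 89 without liver A2-2 and 77 without liver A2-3, and at most 175 without one of the A1 libraries. The libraries of the 2 animals did not overlap for 202 members (78.9%, against 57.4% of all genes tested and 66.3% of the other abundant genes), for 172 of the 224 (76.8%), and for all 41 called ones. When liver A2-1 was included, the fit called 3 members, all higher in A1.
Of the 41 genes, 25 were higher in A1 (9.77% of the members, against 1.88% of all genes tested) and 16 higher in A2 (6.25%, against 2.46%). The direction was not independent of the choice of the members, since the liver median leans towards A1. Of the called genes, 16 of the 25 higher in A1 and 1 of the 16 higher in A2 did not meet the rule in both animals taken alone, out of 32 such members in all. The 24 called genes that met it in both were higher in A2 in 15 cases and higher in A1 in 9. With median-of-ratios scaling, 44 members were called, 12 of them higher in A2, and over all genes 225 of 494 called genes were higher in A2, against 270 of 477 in the deposited values. Over all 256 members, the median log2 difference of A2 over A1 was 0.01 in the deposited values and -0.11 after that scaling. The size of the differences, regardless of sign, was 0.43 at the median over the members, 0.41 over the 224 and 0.24 over all genes tested. The difference exceeded 2 on the log2 scale for 10 members. All 8 that were higher in A1 failed the rule in A2 taken alone. The choice of the members thus favoured this direction, although the differences of these genes are measured values. The 2 that were higher in A2 met the rule in both animals.

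**Figure D4:**
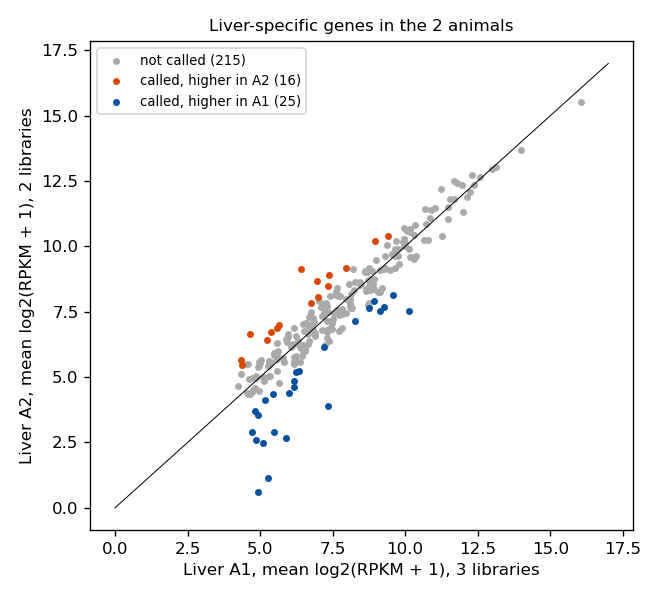
Mean log2(RPKM + 1) of the 256 genes in liver of A2 (y axis, 2 libraries, liver A2-1 left out) against liver of A1 (x axis, 3 libraries); the line marks equal values, and colours mark the 16 genes called higher in A2, the 25 called higher in A1 and the 215 not called. The called genes farthest from the line are those of low level in A2. For the 20 genes of highest level, the log2 difference of A2 over A1 reaches from -0.87 to 0.95.

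Of the 20 highest members 0 were called by limma, although 10 had an adjusted p and 11 an unadjusted p below 0.05 (28.4% and 41.4% of all genes tested), and their log2 differences reached from -0.87 to 0.95. Among the 64 members with the highest liver medians (at least 564 RPKM) 3 were called, among the next groups of 64 genes 10 and 7, and among the 64 members with the lowest medians (from 20.4 RPKM) 21. These counts include genes that entered through one animal. Among the members that met the rule in both animals, 1 of 60, 8 of 60, 7 of 60 and 8 of 44 were called in the same order, and among the other genes of the same liver levels 5.45%, 4.26%, 3.10% and 3.56%. By expression outside liver, 23 of the 127 genes below 1 RPKM in both other tissues were called and 11 of the 51 with kidney expression. So were 6 of the 64 with expression in both and 1 of the 14 with brain expression, against 4.34% of all genes tested. These counts, too, include genes that entered through one animal. The classes come from medians that the rule used, so that nothing is read from their differences.

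The genes with the largest differences in the direction of A1 entered through that animal, and their values are given as a description without a test. ENSMFAG00000014644, of rank 237, had 32.0, 28.1 and 28.1 RPKM in A1 and 0.497 and 0.555 RPKM in A2. The highest of the 12 kidney and brain libraries had 0.084 RPKM, and most were at 0. On the log2 scale the difference of A2 over A1 was -4.31. ENSMFAG00000044624, of rank 226, had 34.8, 38.9 and 38.4 RPKM in A1 and 1.32 and 1.07 RPKM in A2 (log2 difference -4.13). Its kidney libraries reached from 0 to 2.80 RPKM, so that the liver of A2 lay within the range of kidney. Neither gene met the rule in A2 alone, and nor did the gene of rank 44, which had 1136, 1206 and 1021 RPKM in A1 and 171 and 195 RPKM in A2 (log2 difference -2.61). Its brain and kidney libraries overlapped between the animals, and its liver level in A2 was less than 8 times its brain level.
In the other direction, 2 genes met the rule in both animals. ENSMFAG00000036196, of rank 164, had 78.7, 83.0 and 89.9 RPKM in A1 and 556 and 558 RPKM in A2, a log2 difference of 2.72 ± 0.08 (limma, adjusted p = 5.29e-06). In kidney the same gene had 1.91 to 2.98 RPKM in A1 and 2.24 to 3.58 RPKM in A2, and the animals overlapped. ENSMFAG00000030825, of rank 244, had 24.1, 23.2 and 24.4 RPKM in A1 and 109 and 90.3 RPKM in A2 (2.01 ± 0.10, limma, adjusted p = 3.07e-05). Its highest value among the 12 kidney and brain libraries was 0.294 RPKM. In liver A2-1 these 4 genes had 0.04, 1.36, 0.675 and 1.36 RPKM, in the order in which they are given here.

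For members that are also expressed elsewhere, the same animals can be compared in the other tissue. Of the 41 genes called in liver, 17 had a kidney median of at least 1 RPKM, and 7 had a brain median of at least 1 RPKM, with 3 libraries per animal in each tissue. The direction was that of liver for 12 of the 17 genes in kidney and for 4 of the 7 in brain, which was not tested. In kidney, 3 of the 41 passed the same limits with limma. Of all 249 members measured in kidney, 21 passed (8.43%, against 1.77% of all 20274 genes tested). Of these, 16 were higher in A2 (6.43% of the members, against 0.765% of all genes tested) and 5 higher in A1 (2.01% of the members, against 1.01%). The kidney libraries entered the rule through their median, and all genes above 0 in at least 1 kidney library were tested. Nothing is therefore read from the higher share of the members. At rank 57, the gene had 734 to 794 RPKM in liver of A1 and 276 and 287 RPKM in liver of A2, and in kidney 97.8 to 129 RPKM in A1 and 34.8 to 44.2 RPKM in A2. The log2 difference of A2 over A1 was -1.43 in liver and -1.52 in kidney, and as this gene stayed below the 8-fold distance in each animal alone, its liver difference is given without a test. At rank 122, the gene was higher in A2 in both tissues, by 1.55 in liver and 1.41 in kidney on the log2 scale (limma, adjusted p = 4.25e-05 and 0.00127), with kidney values of 1.98 to 2.21 RPKM in A1 and 6.66 to 7.89 RPKM in A2.
One of the 3, the gene of rank 83, went in opposite directions. It had 401 to 478 RPKM in liver of A1 and 186 and 211 RPKM in liver of A2, whereas in kidney it had 1.88 to 2.53 RPKM in A1 and 6.87 to 9.31 RPKM in A2. The log2 differences were -1.11 in liver and 1.44 in kidney, a difference of -2.55, which is given without a test because the gene was singled out for its opposite directions. For the gene of rank 1, kidney was lower in A2 by 2.44 on the log2 scale (limma, log2 difference -2.44, adjusted p = 0.000382), and liver by 0.51 (-0.51, adjusted p = 0.0348). Of all 233 members measured in brain, 9 passed (3.86%, against 1.15% of all 20824 genes tested). The brain libraries also entered the rule, so that nothing is read from this share either. Of the 41 genes called in liver, 37 were measured in brain and 0 passed the same limits there with limma, while 3 had an adjusted p and 7 an unadjusted p below 0.05 (9.65% and 26.9% of all genes tested).

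Liver A2-1 was set aside with its low level of these genes known, and the members were chosen as high in the other 5 liver libraries, so that its values are a description and no independent reading. In this library, 253 of the 256 genes (98.8%) lay below all 5 other liver libraries, against 35.0% of all 10996 genes tested in liver and 58.3% of the 2042 other genes with a liver median of at least 20 RPKM. Of the members, 157 were below 1 RPKM and 9 were listed at 0. The level in liver A2-1 was 0.186% of the liver median at the median over the members, whereas the other abundant liver genes stood at 74.5%. The same measure, taken for each of the other 5 liver libraries against the remaining 4, lay between 95.3% and 104% for the members. As only 1 such library exists, this comparison has no replicate.
The sum of the members placed liver A2-1 between brain and kidney, with 0.244% of the summed RPKM. The ratio to the liver median differed between the members. For the 20 genes of highest liver level, it had a median of 0.0480% and was below 0.1% for 14 genes, with 0.0195% for the gene of rank 1, which had 12.8 RPKM. At the other end, 77 of the 256 genes had at least 1%, 19 at least 10% and 5 at least 50% of the liver median. For the gene of rank 202, the value was 67.1 RPKM in liver A2-1, inside the 42.5 to 125 RPKM of the other liver libraries, while its medians were 0.962 RPKM in kidney and 0.239 RPKM in brain. The genes of rank 246 and rank 148 had 16.7 and 79.01 RPKM, which was 69.8% and 67.3% of their liver medians.

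**Figure D5:**
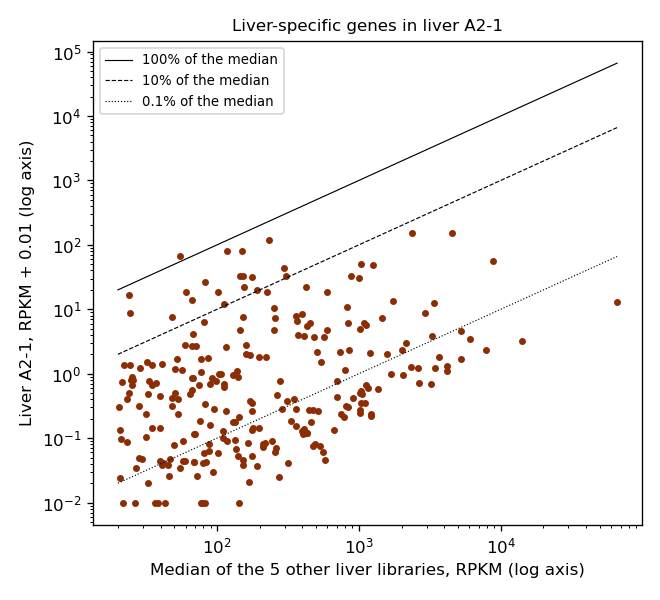
RPKM plus 0.01 in liver A2-1 (y axis) against the median RPKM of the other 5 liver libraries (x axis) for the 256 genes, both on log axes, with lines at 100%, 10% and 0.1% of that median. One gene lies above the 100% line, 19 genes reach 10% and 106 genes lie below 0.1%, among them the gene of highest level.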

How the data were processed

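From total RNA of 3 samples per tissue and animal, mRNA libraries were made and sequenced from both ends. Reads had been mapped with STAR against Ensembl version 92, and the authors deposited 1 table of RPKM values on a linear scale for 29324 genes and 18 libraries, without pooling replicates. FastQC, STAR and Cufflinks are named in the submitters' processing notes, and the paper also names featureCounts. Which of them made the table, and which reads form the total, is not given in the sources used here. As the name of the table refers to unique reads, genes with near-identical copies may be undercounted, which could not be assessed without gene names.

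Columns were assigned to samples by the sample descriptions. Libraries were pooled for sequencing, and the labels do not give the pool of a library, so that its part in any difference was not tested. Tissue medians for the rule were taken on the deposited RPKM values, with liver A2-1 left out. The members, the thresholds and the tests were chosen with earlier results of these data known. Tests used limma (version 3.58.1, R 4.3.3) on log2(RPKM + 1), with an intensity trend and Benjamini-Hochberg adjustment over all genes tested. On this scale, the change of genes with low values is understated. Animals were compared within liver on 5 libraries (genes that reached 1 RPKM in 2 or more of them), and kidney with brain on 4 means per animal and tissue (genes that reached 1 RPKM in 3 or more of the 18 libraries). The fits were tested on simulated data with known changes in 200 genes with a mean log2 level above 3. Between the animals in liver, 93% were recovered at a log2 change of 1.5 and 99% at 3. Between kidney and brain, 90.5% were recovered at a change of 3. Changes in genes of lower level were not simulated. An estimate of relative depth from the steps between low values was not stable in such a test and is not given. The reading of the rule in one animal alone, the animal contrast in kidney and in brain (genes above 0 in at least 1 library) and its difference from liver were added after the data had been seen.

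Liver samples with the same number came from different animals, and their deviations from the group means correlated between -0.0963 and 0.126 across genes. The numbers were therefore not used as pairs in the main fit, only as a block in an alternative. For brain and kidney samples of one number in the same animal, this correlation was 0.212 to 0.497. These deviations no longer contain the means per animal, and what samples of one number share was not tested. The fit of kidney against brain used means over the samples, and the animal as a block was tried as an alternative. A rule for named genes was set in case no symbol could be matched, which limits the printed identifiers to 2 in each direction, the called members with the largest differences between the animals. Of 30 lists of functions and cell types with 450 symbols none could be used, since 0 of the 40596 rows of the RefSeq table used (assembly T2T-MFA8v1.1) hold an Ensembl identifier, so that no identifier could match. No sequence was analysed here. Python 3.11.15 and numpy 2.4.6 were used for the descriptions. A permutation test of the members' share between the animals had been set down, but it could not pass the threshold with 5 libraries and is not used.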

Additional observations from a re-analysis of the deposited data

Results flagged for a closer look

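In each tissue, 4 summary measures of the members and, in liver, the 4 named genes were screened for a library that stood apart, with a distance to its closest neighbour of more than 0.625 of the range over the 6 libraries. This held in 6 of 16 groups. Chance gives about 1 in 20 groups, but the measures overlap, and 4 of the 6 are liver A2-1, which was set aside when the members were chosen, so that the number is not set against chance.

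Liver A2-1 stood apart from the other liver libraries in all 4 summary measures. The members made up 0.244% of its summed RPKM, 9 members were at 0 against none in the others, 99 were at 1 RPKM or more against 255 or 256, and the median over the members was 0.554 RPKM against 157 to 173 RPKM. Brain A2-2 had 93 members at 1 RPKM or more, against 77 to 82 in the other brain libraries, beside its 11748 genes at 0, the highest number among the brain libraries, and the part of depth in this was not tested. In kidney A1-2 the members made up 0.526% of the summed RPKM, against 0.445% to 0.475% in the other kidney libraries.

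For the gene of rank 83, the difference between the animals was not the same in liver and in kidney. The log2 difference of A2 over A1 in liver less that in kidney was -2.55. A2 was lower in both of its liver libraries and higher in all 3 of its kidney libraries. For the gene of rank 1, A2 was lower in both tissues, and the same measure was 1.93. Both genes were singled out after their values in the 2 tissues had been seen, so that no test is given for this measure. For the other 2 genes called in both tissues, it was 0.09 for rank 57 and 0.13 for rank 122.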

How the results depend on the processing

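The number of members depended most on the scale of the values. After median-of-ratios scaling over the 18 libraries, 394 genes met the rule, which contained all 256 members, whereas other thresholds (4 or 16 times, 10 or 50 RPKM) and the liver median over all 6 libraries gave 207 to 329. Without the 10 highest genes of any library, the share of the members in the liver libraries was 30.5%. For A2 against A1 in liver, 813 genes (7.39%) and 42 members were called with a pseudocount of 0.1. With liver A2-1 included, 134 genes and 3 members were called, 3 higher in A1 and 0 higher in A2, ENSMFAG00000036196 reversed to -0.074 (adjusted p = 0.986) and ENSMFAG00000030825 fell short of the limits at 0.21 (adjusted p = 0.939). With the sample number as a block in liver, 475 genes and 40 members were called, 37 of which were among the 41. Liver A1-1 then had no partner, and the differences of the named genes equalled those without liver A1-1. This fit is therefore no separate check. Leaving out 1 of the 5 liver libraries gave 372 to 544 genes and 34 to 41 members, 12 to 16 of them higher in A2 and 19 to 29 higher in A1. Over all genes, 162 were called higher in A2 without liver A2-3, against 270. Where 1 library of A2 remained, it was assumed to vary like those of A1. Between kidney and brain, a pseudocount of 0.1 gave 125 members, 94 higher in kidney and 31 higher in brain, and 7755 of all genes, so that the share called was 48.8% and 50.8%. Animal as a replicate block gave 6754 genes and 76 members, and leaving out 1 library gave 6662 to 6730 genes and 72 to 74 members. The level in liver A2-1 stayed between 0.144% and 0.186%. The block by sample number in liver changed no call of a named gene. The depth of single libraries limits what can be said of members at 0 in brain and kidney.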
